A study of Mus musculus with 6 samples.

Results

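The D-type cyclins, their partner kinases CDK4 and CDK6, the CDK inhibitors of the INK4 and CIP/KIP families and the retinoblastoma protein form the step that lets a cell leave G1 and enter the cell cycle, upstream of the E2F transcription factors. The 10 genes described here were taken by symbol from the count and TPM tables: Ccnd1, Ccnd2 and Ccnd3 (D-type cyclins), Cdk4 and Cdk6 (kinases), Cdkn2c and Cdkn2d (INK4 inhibitors p18 and p19), Cdkn1a and Cdkn1b (CIP/KIP proteins p21 and p27) and Rb1 (the substrate). They are 10 of the 23935 symbols in the tables, and all 10 passed the filter on low counts that left 16516 genes for testing.

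RNA-seq was performed on bone marrow-derived macrophages (BMDMs), which were grown from femur and tibia marrow in M-CSF for 7 days and primed for 16 h with IFN-γ (25 ng/mL) together with LPS (10 ng/mL). There were 3 libraries of PKM2ΔMAC mice, which carry floxed PKM2 alleles together with LysM-Cre, and 3 of control littermates (PKM2FL/FL), which carry the floxed alleles without Cre. All 6 cultures were primed, so the effect of LPS/IFN-γ itself is not part of the comparison. The question addressed by the comparison is whether the level of the genes that control entry into the cell cycle differed between these genotypes. LysM-Cre sits in the Lyz2 locus and is active in myeloid cells in general, not in macrophages alone. Only the PKM2ΔMAC mice carry it, so loss of PKM2, presence of the Cre and loss of Lyz2 RNA cannot be told apart here. The age of the mice that gave these cultures is not given in the sources used here. Their sex is stated by the study (male) only for BMDMs under the same treatment that were used for flow cytometry. It is not stated whether the numbered libraries of the genotypes came from the same litter or day.

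In a resting cell, Rb1 binds E2F factors and keeps S phase genes silent. Growth factors, among them M-CSF in macrophages, raise the D-type cyclins, which bind CDK4 or CDK6 and start the phosphorylation of Rb1. INK4 proteins bind CDK4 and CDK6 and displace the cyclin, whereas CIP/KIP proteins bind cyclin-CDK complexes, block CDK2 and can also help D-type cyclins assemble with CDK4. Much of this control acts on the proteins by synthesis, phosphorylation and degradation, which mRNA levels do not show. Macrophages that receive LPS or IFN-γ are known to slow or stop their proliferation, with Cdkn1a among the genes involved.

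Total counts were between 49957449 and 54524651 per library, and the 10 genes had between 585 and 6582 counts in a library. At the lowest of these, counting error alone gives a standard deviation of 4.13%. Pkm, the targeted gene, was at 1714, 1698 and 1705 CPM (counts corrected for library size) in PKM2FL/FL replicates 1 to 3 and at 987, 1212 and 1005 CPM in PKM2ΔMAC replicates 1 to 3 (log2 fold change -0.68, adjusted p = 0.00913 by edgeR's quasi-likelihood method, adjusted after Benjamini and Hochberg). The counts cover all exons of Pkm, so its PKM1 and PKM2 isoforms were not separated. The adjusted p of Pkm rose to between 0.0754 and 0.0993 when PKM2FL/FL replicate 1, 2 or 3 was left out. Lyz2, the locus of the Cre, fell from 17820 ± 860 to 28.4 ± 3.80 CPM (SD, n = 3 each). Of the 8 macrophage markers, 3 were higher and 5 lower in PKM2ΔMAC BMDMs (median log2 fold change -0.029), and Itgam was called higher. Their summed level was 8103 to 8409 TPM in PKM2FL/FL and 8563 to 9320 TPM in PKM2ΔMAC BMDMs. TPM is a level that is corrected for transcript length and is the scale on which different genes are compared here. On log2(TPM + 1) the median difference of all genes was 0.063 between PKM2ΔMAC and PKM2FL/FL BMDMs, against -0.00021 on the scaled counts, so TPM values of PKM2ΔMAC libraries read slightly high and the fold changes given are those of the counts. The 8 neutrophil markers were all higher in PKM2ΔMAC BMDMs and none was called, with sums of 68.6 to 168 TPM in PKM2FL/FL and of 469, 323 and 659 TPM in PKM2ΔMAC replicates 1 to 3. T and NK cell markers summed to at most 1.02 TPM and dendritic cell markers to at most 2.37 TPM in any library. Stromal markers summed to 2011 to 2294 TPM in PKM2FL/FL and 2241 to 2697 TPM in PKM2ΔMAC BMDMs. Mast cell and basophil markers summed to 7.28 to 14.0 and 4.56 to 20.1 TPM, and erythroid markers to 5.51 to 8.25 and 6.83 to 13.2 TPM. The part of these other cells in the results below was not tested. In bulk RNA, fewer cells that express a gene and less of its RNA per cell cannot be told apart.

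One library stood apart. Over all genes, the counts of PKM2ΔMAC replicate 2 differed from those of replicates 1 and 3 by 43.1 and 53.8 in chi-square per degree of freedom, against 10.1 between replicates 1 and 3. That library had the highest CPM of the 6 libraries in 8 of the 10 genes, all but Cdk4 and Cdk6, whereas it was the highest library in 24.9% of all genes tested. The differences of the 10 genes are therefore given with all 6 libraries and again without that library. With all 6 libraries, edgeR's quasi-likelihood method called 0 of the 10 genes at an adjusted p below 0.05, against 0.412% of all genes tested. DESeq2 called 1 of them (Rb1), against 1.83% of all genes, and limma-trend on the TPM values called 0, against 0.15% to 0.281% of all genes. At an unadjusted p under 0.05 there were 2, Rb1 and Cdkn2c, against 9.83% of all genes, and both were higher in PKM2ΔMAC BMDMs, against 5.24% of all genes that were higher at that p. For the same 2 genes the CPM of every PKM2ΔMAC library lay above that of every PKM2FL/FL library, which was so for 8.92% of all genes. The median log2 fold change of the 10 genes was 0.08, with 8 higher and 2 lower, and that of all genes tested was -0.00021.

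**Figure D1:**
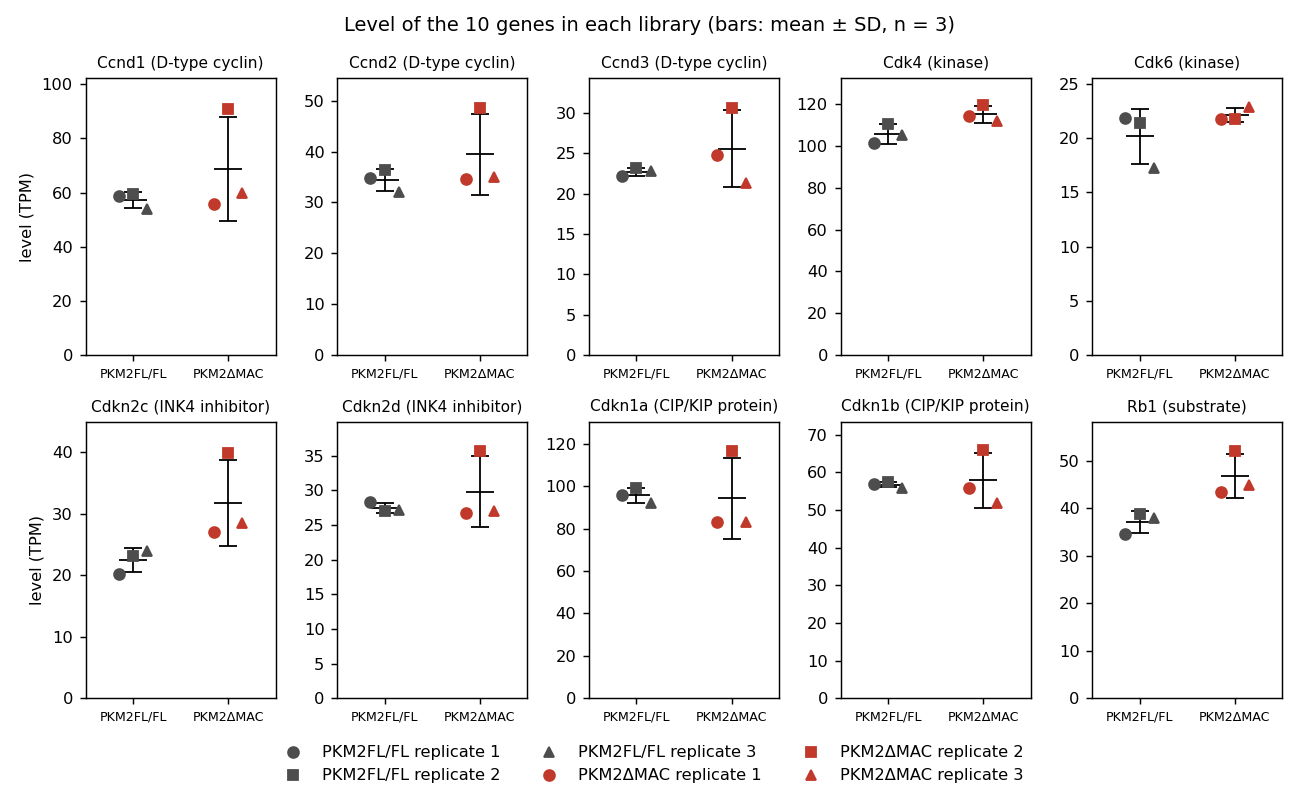
Level in TPM (vertical axes, starting at 0) of each of the 10 genes in the 3 PKM2FL/FL libraries (grey) and the 3 PKM2ΔMAC libraries (red), with the mean and SD of each genotype (n = 3) in black. PKM2ΔMAC replicate 2 (red square) is the highest point in 9 panels, and in the panel of Cdk6 it lies among the others.

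The genes differed several-fold in level within the same cultures. Over the 6 libraries, mean levels ran from Cdk4 (110.5 TPM) through Cdkn1a (95), Ccnd1 (63.1), Cdkn1b (57.3), Rb1 (42.0), Ccnd2 (36.9), Cdkn2d (28.7), Cdkn2c (27.1) and Ccnd3 (24.2) to Cdk6 (21.2 TPM). The ranges over the libraries overlapped for every pair of neighbours in this order. Within single libraries, Cdk4 was above Cdkn1a and Cdkn1a above Ccnd1 in 6 of 6, but Cdkn2d was above Cdkn2c in only 3 of 6. Those 3 were the PKM2FL/FL libraries, and in the 3 PKM2ΔMAC libraries the order was the other way round. Among all genes tested, Cdk4 had a higher mean TPM than 90.9% and Cdk6 than 60.8%, so that all 10 genes were in the upper part of the distribution.

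Among the D-type cyclins, Ccnd1 was the most abundant. Ccnd1 (chromosome 7, 144929931 to 144939925, minus strand, GRCm38) was at 58.7, 59.5 and 53.9 TPM in PKM2FL/FL and at 55.7, 90.8 and 59.8 TPM in PKM2ΔMAC replicates 1 to 3. PKM2ΔMAC replicate 2 was far above the other 5 libraries, while replicates 1 and 3 were within or next to the PKM2FL/FL range. The log2 fold change was 0.18 (SE 0.18, 95% interval -0.26 to 0.63, adjusted p = 0.809 by edgeR), and the exact permutation test gave p = 0.90 (two-sided). Without PKM2ΔMAC replicate 2 it was -0.036, with a 95% interval of -0.15 to 0.079.

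Ccnd2 (chromosome 6, 127125162 to 127152193, minus strand), a D-type cyclin that is strongly induced by growth signals in haematopoietic cells, was at 34.9, 36.4 and 32.0 TPM in PKM2FL/FL and at 34.7, 48.6 and 35.1 TPM in PKM2ΔMAC BMDMs. Ccnd3 (chromosome 17, 47505051 to 47599691, plus strand), the third D-type cyclin, was at 22.2, 23.2 and 22.8 TPM and at 24.8, 30.7 and 21.3 TPM. In both genes replicate 2 was again the highest library and the genotypes overlapped. Ccnd2 had a log2 fold change of 0.12 (SE 0.12, 95% interval -0.17 to 0.41, adjusted p = 0.812 in edgeR's test) and Ccnd3 of 0.096 (SE 0.10, 95% interval -0.15 to 0.34, adjusted p = 0.824). When that library was left out they were -0.027 and -0.023, so the direction of all 3 cyclins depended on that library.

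All 3 cyclins were highest in PKM2ΔMAC replicate 2, whereas in replicates 1 and 3 Ccnd1 and Ccnd3 lay on opposite sides of the PKM2FL/FL mean in CPM. Their summed level was 116, 119 and 109 TPM in PKM2FL/FL and 115, 170.2 and 116 TPM in PKM2ΔMAC replicates 1 to 3. Ccnd1 made up 50.1% ± 0.57 of this sum in PKM2FL/FL and 51.1% ± 2.53 in PKM2ΔMAC BMDMs (SD, n = 3 each, exact permutation test, two-sided, p = 0.60). Ccnd2 made up 30.1% ± 0.572 and 29.6% ± 0.910, and Ccnd3 19.9% ± 0.981 and 19.3% ± 1.94 (exact permutation tests, two-sided, p = 0.60 for each). The order Ccnd1, Ccnd2, Ccnd3 was the same in all 6 libraries.

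The kinases were the steadiest of the 10 genes across PKM2ΔMAC libraries. Cdk4 (chromosome 10, 127063534 to 127067920, plus strand) was at 101, 111 and 105.5 TPM in PKM2FL/FL and at 114, 119.5 and 112 TPM in PKM2ΔMAC BMDMs. On this scale the genotypes did not overlap, but on CPM they did, with 94.96 to 101 CPM in PKM2FL/FL and 101 to 102 CPM in PKM2ΔMAC BMDMs. The difference of Cdk4 on log2(TPM + 1) was 0.12, beside the shift of 0.063 over all genes on that scale. Its log2 fold change was 0.05 (SE 0.038, 95% interval -0.038 to 0.14, adjusted p = 0.737 by edgeR), against 0.051 when PKM2ΔMAC replicate 2 and 0.026 when PKM2FL/FL replicate 1 was left out. The interval leaves room for a rise or fall that is small beside the spread of the cyclins. Cdk4 lies 9.78 Mb from Lyz2 on the same chromosome.

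Cdk6 (chromosome 5, 3341485 to 3531008, plus strand), which shares the cyclin partners of CDK4, was at 21.9, 21.4 and 17.3 TPM in PKM2FL/FL and at 21.8, 21.8 and 22.9 TPM in PKM2ΔMAC BMDMs. The lowest library was PKM2FL/FL replicate 3, and the genotypes overlapped, with a log2 fold change of 0.064 (SE 0.092, 95% interval -0.15 to 0.28, adjusted p = 0.875 in edgeR's test), which was 0.10 without PKM2ΔMAC replicate 2 (95% interval -0.18 to 0.39) and turned to -0.035 without PKM2FL/FL replicate 3. Cdk4 made up 84.0% ± 1.85 of the summed TPM of the 2 kinases in PKM2FL/FL and 83.9% ± 0.801 in PKM2ΔMAC BMDMs (SD, n = 3 each, exact permutation test, two-sided, p = 1).

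**Figure D2:**
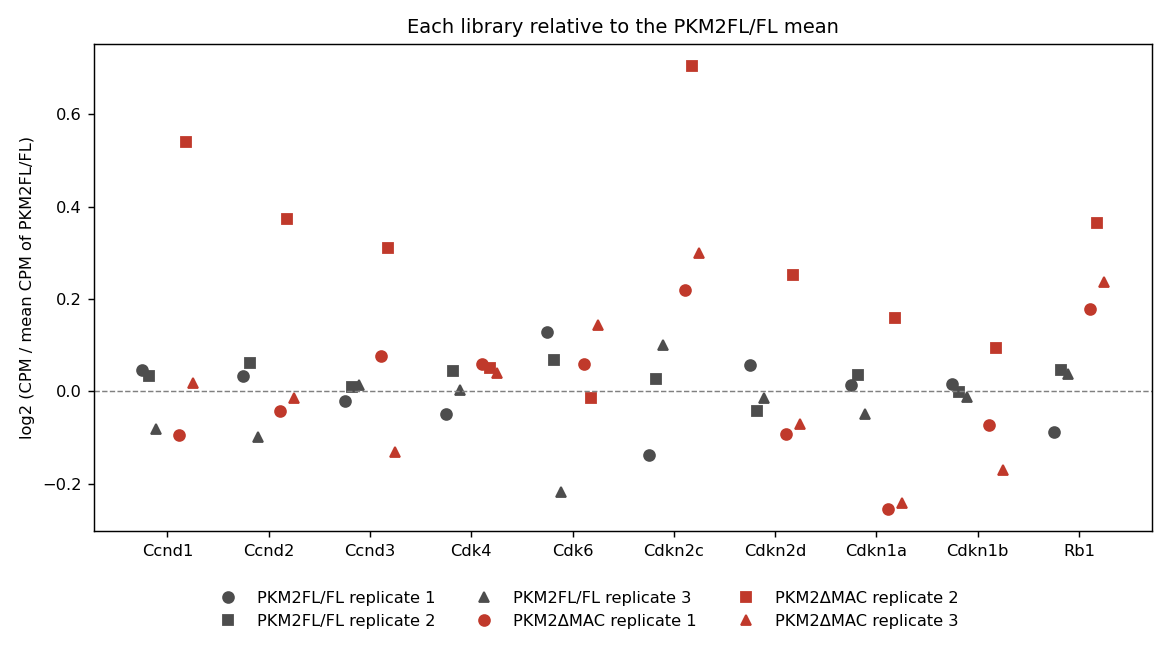
CPM of each library relative to the mean CPM of the 3 PKM2FL/FL libraries, on a log2 scale (vertical axis), for the 10 genes (horizontal axis), with grey for PKM2FL/FL and red for PKM2ΔMAC. PKM2ΔMAC replicate 2 (red square) is the highest in 8 genes. For Cdkn2c and Rb1 all 3 red points are above the grey ones. For Cdkn1a, Cdkn1b and Cdkn2d, PKM2ΔMAC replicates 1 and 3 are below the grey ones.

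Cdkn2c and Cdkn1a, the 2 inhibitors with the largest differences in opposite directions, are shown first by the bases before a start site. Cdkn1b, the CIP/KIP partner of the latter, is shown with them. The 95% intervals of all 3 excluded 0 when PKM2ΔMAC replicate 2 was left out, but with all 6 libraries only that of Cdkn2c did. These intervals are not adjusted for the number of genes, and the share of all genes with such an interval in that fit was not taken. The sequences are from RefSeq on GRCm38.p6, read 5′ to 3′ on the strand of the gene and ended before any exon of GENCODE M21. Capitals mark GC boxes (GGGCGG on either strand) and CCAAT boxes (CCAAT on either strand).
Cdkn2c, chr4:109665373-109665609, minus strand: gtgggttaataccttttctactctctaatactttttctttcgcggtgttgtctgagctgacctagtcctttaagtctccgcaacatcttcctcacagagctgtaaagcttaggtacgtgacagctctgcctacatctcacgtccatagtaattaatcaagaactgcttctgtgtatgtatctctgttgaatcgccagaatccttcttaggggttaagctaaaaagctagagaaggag
Cdkn1a, chr17:29090729-29090975, plus strand: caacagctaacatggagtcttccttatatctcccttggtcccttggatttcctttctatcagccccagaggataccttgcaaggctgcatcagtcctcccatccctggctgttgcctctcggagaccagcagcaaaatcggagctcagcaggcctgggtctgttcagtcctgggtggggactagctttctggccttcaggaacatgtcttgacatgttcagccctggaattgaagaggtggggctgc
Cdkn1b, chr6:134920151-134920400, plus strand: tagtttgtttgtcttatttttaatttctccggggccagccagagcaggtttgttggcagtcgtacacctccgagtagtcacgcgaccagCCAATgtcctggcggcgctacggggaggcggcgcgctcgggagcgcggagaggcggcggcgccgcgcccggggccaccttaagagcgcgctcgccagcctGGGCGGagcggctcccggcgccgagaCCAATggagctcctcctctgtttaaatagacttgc

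The stretch of Cdkn1b held 1 GC box and 2 CCAAT boxes at a GC content of 64.4%. Those of Cdkn2c and Cdkn1a held neither motif, at a GC content of 42.6% and 54.3%, but the window around the other start of Cdkn2c held 4 GC boxes and that of Cdkn1a 2. These other windows are not printed because exons cover them before the start. RefSeq windows of 300 bases around the start were at hand for 7 of the 10 genes, in 10 windows, some genes having more than 1 start. In these whole windows, the GC box was found in 7 of 10 and CCAAT in 4 of 10, against 35.7% and 37.4% of 32851 windows of all genes. The letters TTTNNCGC, each N being C or G, which E2F factors are known to bind, were found on either strand in 0 of the 10 windows and in 2.26% of all windows. The letters TATAAA were found in 1 of 10 windows and in 13.6% of all. These letters can overlap one another and are a description of the windows, not sites.

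Cdkn2c (chromosome 4, 109660876 to 109667189, minus strand), which encodes the INK4 inhibitor p18, had the largest difference of the 10 genes. It was at 20.2, 23.2 and 23.9 TPM in PKM2FL/FL and at 27.1, 39.8 and 28.4 TPM in PKM2ΔMAC replicates 1 to 3. All 3 PKM2ΔMAC libraries lay above all 3 PKM2FL/FL libraries, and replicate 2 lay furthest above. Its log2 fold change was 0.42 (SE 0.13, 95% interval 0.11 to 0.74), a 1.34-fold level with an interval of 1.08 to 1.67, but the adjusted p was 0.362 by edgeR with Benjamini-Hochberg adjustment (unadjusted p = 0.0141). The exact permutation test gave p = 0.10 (two-sided), the smallest possible for 3 libraries against 3. When PKM2ΔMAC replicate 2 was left out it was 0.26 (95% interval 0.077 to 0.45, adjusted p = 0.182).

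Cdkn2d (chromosome 9, 21288410 to 21291407, minus strand), which encodes the INK4 inhibitor p19, was at 28.4, 27.1 and 27.1 TPM in PKM2FL/FL and at 26.8, 35.7 and 26.97 TPM in PKM2ΔMAC BMDMs. Replicates 1 and 3 were below every PKM2FL/FL library, and only replicate 2 was above them. The log2 fold change of Cdkn2d was 0.039 (SE 0.11, 95% interval -0.20 to 0.28, adjusted p = 0.942 in edgeR's test) and -0.0798 without PKM2ΔMAC replicate 2. The ratio of Cdkn2c to Cdkn2d in TPM was 0.712, 0.856 and 0.883 in PKM2FL/FL and 1.01, 1.11 and 1.05 in PKM2ΔMAC BMDMs, which did not overlap and which rests on the values of Cdkn2c given above.

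Cdkn1a (chromosome 17, 29090976 to 29100727, plus strand) encodes p21, a CIP/KIP protein and target of p53. It was at 95.8, 99.3 and 92.1 TPM in PKM2FL/FL and at 83.1, 116 and 83.3 TPM in PKM2ΔMAC replicates 1 to 3. PKM2ΔMAC replicates 1 and 3 were below every PKM2FL/FL library and replicate 2 was above every one, so the PKM2ΔMAC values spread to both sides (coefficient of variation 20.3%, against 3.80% in PKM2FL/FL). With all 6 libraries the log2 fold change was -0.10 (SE 0.11, 95% interval -0.38 to 0.18, adjusted p = 0.838 by edgeR with Benjamini-Hochberg adjustment). Without PKM2ΔMAC replicate 2 it was -0.25 (SE 0.042, 95% interval -0.34 to -0.16, adjusted p = 0.0132), and Cdkn1a was then the 1 gene of the 10 with an adjusted p under 0.05, against 1.77% of all genes in that fit. Without each of the other 5 libraries the adjusted p was 0.918 or more, and the log2 fold change shrank to -0.028 without PKM2ΔMAC replicate 1 and to -0.035 without replicate 3.

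Cdkn1b (chromosome 6, 134920401 to 134925513, plus strand) encodes p27, the other CIP/KIP protein of the group, whose amount is mostly set by degradation of the protein. It was at 56.8, 57.4 and 55.9 TPM in PKM2FL/FL and at 55.9, 65.9 and 51.8 TPM in PKM2ΔMAC BMDMs. Replicate 2 was again the highest library and replicate 3 the lowest, with overlap between the genotypes. In CPM, PKM2ΔMAC replicates 1 and 3 were both below every PKM2FL/FL library. Its log2 fold change was -0.046 (SE 0.064, 95% interval -0.19 to 0.099, adjusted p = 0.866 in edgeR's test), and without PKM2ΔMAC replicate 2 it was -0.12 (95% interval -0.22 to -0.021, adjusted p = 0.263). On log2(TPM + 1) with all 6 libraries it was 0.022, below the median of all genes on that scale.

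The balance of inhibitors to cyclins was taken within each library, which removes changes shared by both sides. The summed TPM of the 4 inhibitors over that of the 3 D-type cyclins was 1.74, 1.74 and 1.83 in PKM2FL/FL and 1.67, 1.52 and 1.64 in PKM2ΔMAC replicates 1 to 3. Every PKM2ΔMAC library was below every PKM2FL/FL library. On the log2 scale the difference was -0.14, or -0.094 without PKM2ΔMAC replicate 2 (0.82 ± 0.043 in PKM2FL/FL and 0.69 ± 0.076 in PKM2ΔMAC BMDMs, SD, n = 3 each). The exact permutation test gave p = 0.10 (two-sided), the smallest it can give, and 0.50 after adjustment over the 5 shares and ratios tested. The sum of the INK4 genes was 48.5 to 51.1 TPM in PKM2FL/FL and 53.8 to 75.5 TPM in PKM2ΔMAC BMDMs, whereas that of the CIP/KIP genes was 148 to 157 TPM and 135 to 182 TPM.

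**Figure D3:**
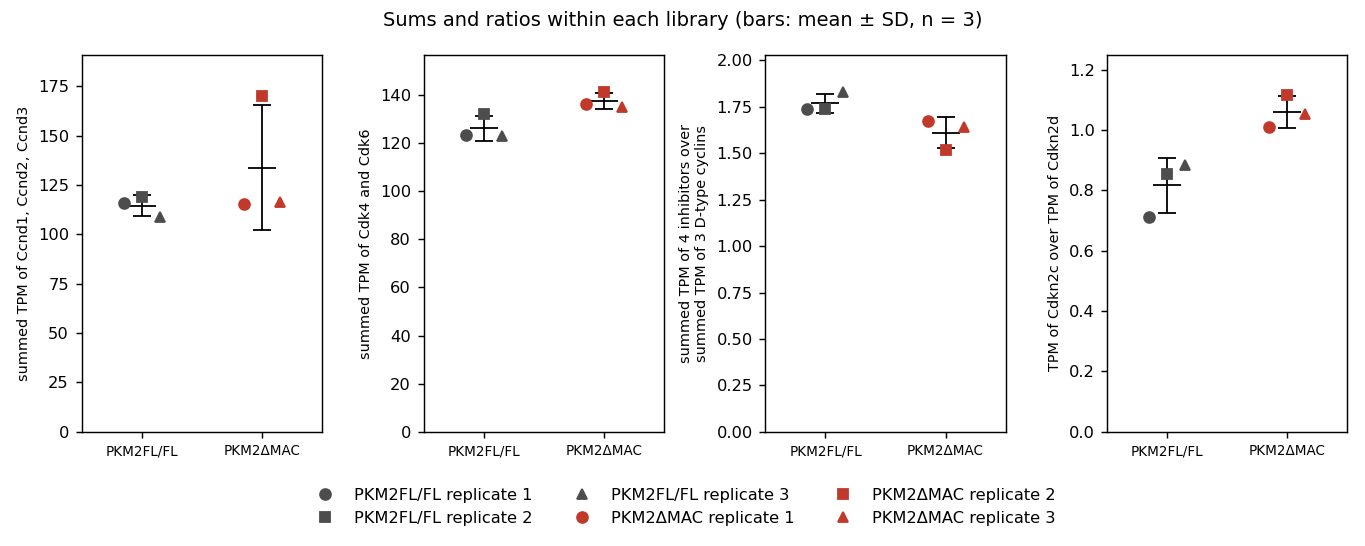
Summed TPM of the D-type cyclins, summed TPM of Cdk4 and Cdk6, the ratio of the 4 inhibitors to the 3 D-type cyclins and the ratio of Cdkn2c to Cdkn2d in each library (vertical axes, starting at 0), with the mean and SD of each genotype (n = 3) in black. The sum of the D-type cyclins overlaps between the genotypes. That of Cdk4 and Cdk6 does not (122.8 to 132 TPM in PKM2FL/FL and 134.8 to 141.3 TPM in PKM2ΔMAC BMDMs). This sum is on the TPM scale, which reads slightly high in PKM2ΔMAC libraries. The inhibitor to cyclin ratio lies between 1.52 and 1.67 in PKM2ΔMAC and between 1.74 and 1.83 in PKM2FL/FL BMDMs.

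Rb1 (chromosome 14, 73183673 to 73325822, minus strand), the substrate of the cyclin D kinases, had the smallest p of the 10 genes with all 6 libraries. It was at 34.6, 38.8 and 37.9 TPM in PKM2FL/FL and at 43.5, 52.0 and 45.0 TPM in PKM2ΔMAC replicates 1 to 3. The genotypes did not overlap, and the lowest PKM2ΔMAC library was above the highest PKM2FL/FL library by more than the range within PKM2FL/FL. On the log2 scale it was higher by 0.26 (SE 0.059, 95% interval 0.13 to 0.40), a 1.20-fold level with an interval of 1.09 to 1.32, with an unadjusted p of 0.00191 and an adjusted p of 0.180 by edgeR. DESeq2 gave an adjusted p of 0.0412, and the other alternatives gave 0.0614 to 0.519. The exact permutation test gave p = 0.10 (two-sided), the smallest possible. With that library left out it was 0.21 (95% interval 0.098 to 0.32, adjusted p = 0.0726).

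Genes on the opposite strand overlap the loci of Rb1, Ccnd1, Ccnd2, Ccnd3, Cdk4, Cdk6 and Cdkn1a. The strand setting of the counting is not given in the sources used here, so reads of these genes may be shared or lost. Gm17233, which overlaps Rb1 on its own strand, had between 0 and 6 counts in a library. Lpar6, which overlaps Rb1, had a log2 fold change of 0.19 (adjusted p = 0.763 in edgeR's test) and Rcbtb2, whose span overlaps it by 24171 bases, of -0.093 (adjusted p = 0.896). Tspan31, Bysl and LTO1, which overlap Cdk4, Ccnd3 and Ccnd1 on the opposite strand, had log2 fold changes of -0.0043, -0.054 and -0.019. None of the 5 overlapping genes from Lpar6 to LTO1 had separate genotypes in CPM or TPM. Among 13076 tested genes with a mean of at least 1 CPM, those whose log2 CPM over the 6 libraries ran closest to Rb1 were Gbe1, Adam23, Polh, Ptch1 and Acat2, with a root mean square difference of 0.033 to 0.04. Their log2 fold changes were 0.21 to 0.32. Values near that of Rb1 follow from the choice, since the genes were picked by their profile over the same 6 libraries.

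**Figure D4:**
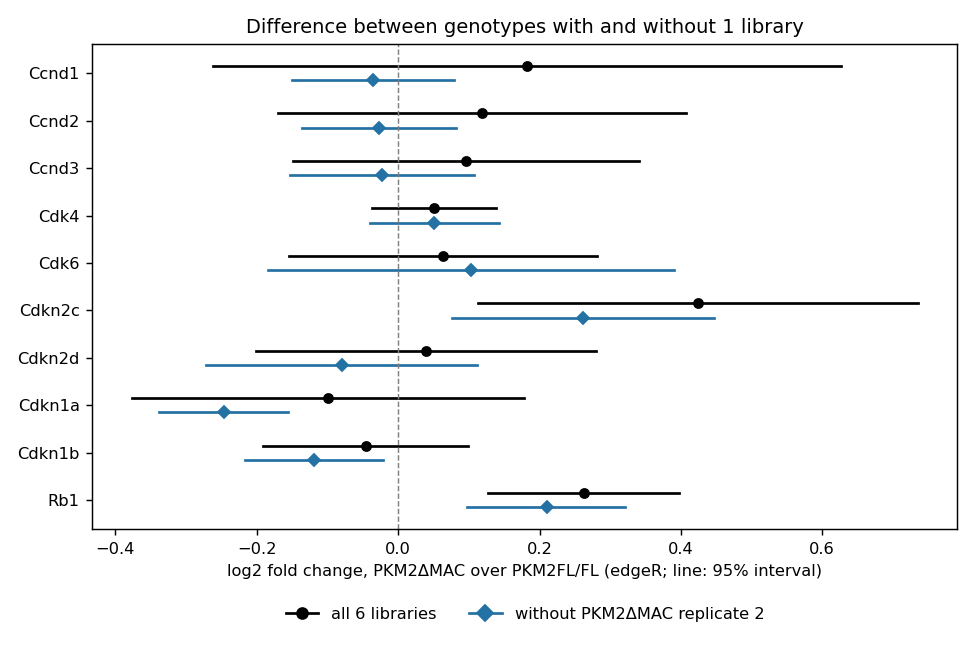
Log2 fold change of PKM2ΔMAC over PKM2FL/FL BMDMs (horizontal axis) with its 95% interval for each of the 10 genes, from all 6 libraries (black circles) and without PKM2ΔMAC replicate 2 (blue diamonds). The intervals of Cdkn2c and Rb1 lie above 0 in both fits, and those of Cdkn1a and Cdkn1b lie below 0 only without replicate 2.

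Without PKM2ΔMAC replicate 2, 4 of the 10 genes were higher and 6 were lower, with a median log2 fold change of -0.025. The share of all genes with an adjusted p under 0.05 in that fit rose from 0.412% to 1.77%, and all 68 genes called with 6 libraries were among the 299 called without it. Relative to the PKM2FL/FL mean in CPM, that library was at 145% for Ccnd1, 163% for Cdkn2c, 129% for Rb1 and 112% for Cdkn1a. PKM2ΔMAC replicates 1 and 3 were at 93.7% and 101% for Ccnd1, 116% and 123% for Cdkn2c, 113% and 118% for Rb1 and 83.8% and 84.6% for Cdkn1a. Replicates 1 and 3 were thus closer to each other than to replicate 2 in these 4 genes, and replicate 2 was above both in each. Among the other genes, Ccnd3 was at 105% and 91.2% in replicates 1 and 3, and Cdk4 and Cdk6 were not highest in replicate 2.

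The rest of the pathway was read from lists of genes around these 10. Of 12 Rb and E2F partners, 12 were higher in PKM2ΔMAC BMDMs at a median log2 difference of 0.14, and edgeR called 0 of them (2 at an unadjusted p under 0.05). E2f8, an atypical E2F that represses E2F targets, was at 6.89, 7.19 and 7.35 TPM in PKM2FL/FL and at 10.2, 12.6 and 8.44 TPM in PKM2ΔMAC BMDMs (log2 fold change 0.47, adjusted p = 0.233). E2f7, its close relative, was at 1.62, 2.26 and 1.75 TPM and at 2.13, 3.56 and 2.22 TPM (log2 fold change 0.41, adjusted p = 0.558). E2f8 did not overlap between the genotypes and E2f7 did.

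Of the 8 genes of cyclin E, cyclin A, CDK2 and their activators, which act after the D-type cyclins, 6 were higher and 2 lower, with 0 called, 1 at an unadjusted p under 0.05 and a median of 0.11, which was 0.027 without PKM2ΔMAC replicate 2. Ccna2, the S phase cyclin, was at 13.1, 13.8 and 15.4 TPM in PKM2FL/FL and at 17.4, 31.9 and 16.8 TPM in PKM2ΔMAC BMDMs (log2 fold change 0.56, adjusted p = 0.542 in edgeR's test). Ccne2, a cyclin E, was at 5.17, 5.47 and 5.58 TPM and at 6.16, 11.9 and 6.54 TPM (log2 fold change 0.52, adjusted p = 0.519). Both were above the PKM2FL/FL libraries in all 3 PKM2ΔMAC libraries, most of all in replicate 2.

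Of the 3 INK4 and CIP/KIP inhibitors outside the group, 2 were higher and 1 lower in PKM2ΔMAC BMDMs, with 0 called by edgeR and a median of 0.17. Cdkn1c, which encodes p57, was at 98.01, 53.1 and 69.6 TPM in PKM2FL/FL and at 67.7, 24.1 and 45.9 TPM in PKM2ΔMAC BMDMs, a log2 fold change of -0.75 with a 95% interval of -1.93 to 0.43 (adjusted p = 0.675 in edgeR's test). It was lowest in PKM2ΔMAC replicate 2, the library in which most of the 10 genes were highest. Cdkn2b, which encodes the INK4 inhibitor p15, was at 20.1, 21.6 and 18.1 TPM and at 27.2, 23.7 and 29.4 TPM (log2 fold change 0.36, adjusted p = 0.394), and the genotypes did not overlap. Of these 3 genes, Cdkn2b was the 1 with an unadjusted p under 0.05.

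Of 10 genes that control the turnover or activity of D-type cyclins, CDK4 and p27, 6 were higher and 4 lower, with 0 called and 0 at an unadjusted p under 0.05. Their median was 0.014, or 0.025 without PKM2ΔMAC replicate 2. Skp2, which marks p27 for degradation, had a log2 fold change of 0.13 (adjusted p = 0.672 in edgeR's test), and Cks1b, its cofactor, of 0.31 (adjusted p = 0.601). Cks1b was at 42.93 to 46.37 TPM in PKM2FL/FL and at 49.25, 78.14 and 48.59 TPM in PKM2ΔMAC replicates 1 to 3. Of 15 targets of p53 other than Cdkn1a, 6 were higher and 9 lower, with 0 called, 2 at an unadjusted p under 0.05 and a median of -0.016. Gdf15, a stress cytokine of the TGF-β family, was at 34.3, 39.9 and 32.6 TPM in PKM2FL/FL and at 25.4, 31.7 and 31.8 TPM in PKM2ΔMAC BMDMs (log2 fold change -0.34, adjusted p = 0.348). Eda2r, a receptor of the TNF receptor family, had a log2 fold change of 0.27 (adjusted p = 0.704), with 6.21 TPM in PKM2ΔMAC replicate 2 and 3.31 to 3.92 TPM in the other 5 libraries.

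Of 19 proliferation genes, which are expressed in S phase or mitosis, 19 were higher in PKM2ΔMAC BMDMs with a median log2 fold change of 0.45. With all 6 libraries edgeR called 0 of them after adjustment, and 10 had an unadjusted p under 0.05, against 9.83% of all genes. Of the 16516 genes tested, 8245 were higher. Their summed level was 664 to 689 TPM in PKM2FL/FL and 842, 1119 and 828 TPM in PKM2ΔMAC replicates 1 to 3, so replicate 2 was the highest here as well. Birc5, which encodes survivin, was at 7.92, 9.11 and 9.78 TPM and at 12.3, 21.1 and 12.6 TPM (log2 fold change 0.70, adjusted p = 0.341). Rrm2, a subunit of ribonucleotide reductase, was at 30.5, 35.9 and 32.4 TPM and at 37.2, 86.9 and 39.4 TPM (log2 fold change 0.64, adjusted p = 0.636). Without PKM2ΔMAC replicate 2, 19 of 19 were higher with a median of 0.21 and 2 called (1.77% of all genes in that fit), the Rb and E2F partners were 11 higher and 1 lower with a median of 0.077, and the p53 targets were 4 higher and 11 lower with a median of -0.06.

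**Figure D5:**
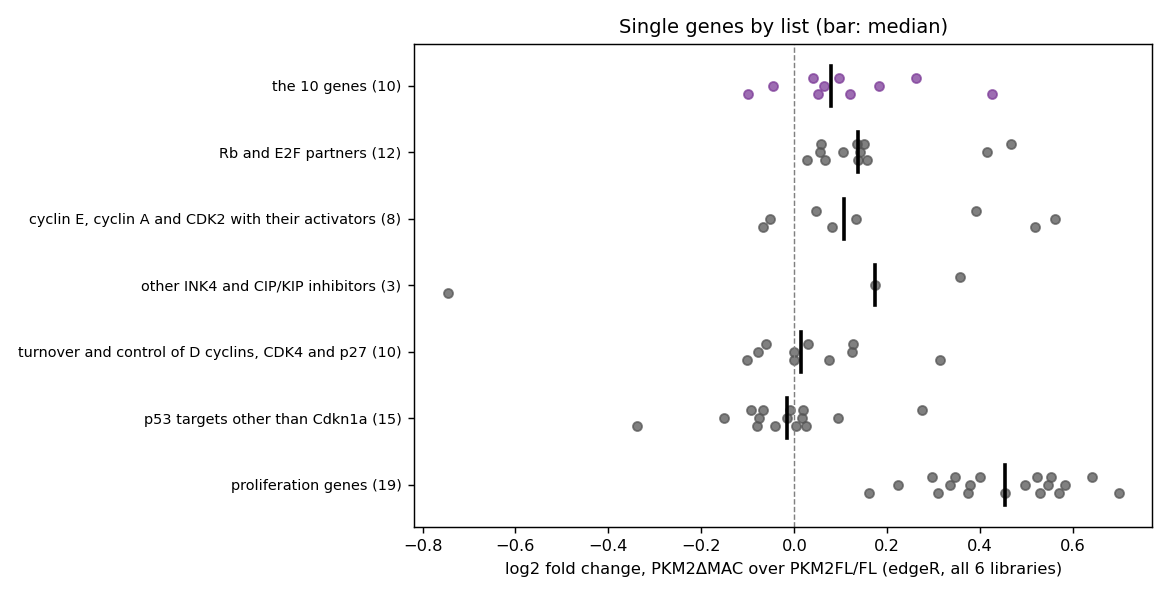
Log2 fold change of PKM2ΔMAC over PKM2FL/FL BMDMs (horizontal axis) for each gene of the 10 (purple) and of the 6 lists around them (grey), with all 6 libraries. Black bars are medians, which run from -0.016 for the p53 targets to 0.45 for the proliferation genes, with 0.08 for the 10 genes.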

How the data were processed

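RNA-seq was performed by the authors on total RNA of 6 BMDM cultures, 1 library per mouse and 3 per genotype, with a SMARTER RNA-seq kit. The authors deposited counts per gene symbol without normalization and, for the same 23935 symbols, TPM values. The submitters' processing notes name FastQC 0.12.1, Trim Galore 0.6.10, HISAT2 2.2.1, SAMtools 1.19.2, Subread 2.0.6 and the genome build mm10, without role or order. The annotation and the strand setting are not given in the sources used here. Reads shared by overlapping genes or near-identical copies may therefore be assigned or lost in a way that the tables do not show.

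Counts were filtered by filterByExpr, scaled by TMM and compared on genotype with edgeR 4.0.16 (quasi-likelihood test, robust estimation, R 4.3.3) over 16516 genes, with Benjamini-Hochberg adjustment over all of them and a threshold of 0.05. The common dispersion was 0.0128. Exact permutation tests of log2 CPM compared 3 libraries with 3. The functions were tested on simulated data. Total counts of 49957449 to 54524651 give the 10 genes at least 585 counts in each library, and libraries of a genotype differed by more than sampling noise. Positions came from GENCODE M21 and start-site windows from RefSeq. All 10 genes are named. Of each pathway list, genes with an adjusted p under 0.05 are named or, with none, the 2 with the largest log2 fold change either way at a mean of at least 1 CPM. For the gene with the smallest p with all 6 libraries, the 5 genes with the closest profile are named. The 10 genes and all lists were chosen with earlier results of these data known. Other settings tried were upper-quartile and RLE factors, DESeq2 1.42.0, no filter, at least 10 counts in every library, no robust estimation, a replicate block, limma-trend (limma 3.58.1) on log2(TPM + 1) or log2(TPM + 0.1), and each library left out in turn. The counts by list without PKM2ΔMAC replicate 2 were added after seeing the data.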

Additional observations from a re-analysis of the deposited data

How the results depend on the processing

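With 3 libraries per genotype no exact permutation test could pass 0.05, and the 95% intervals, not the depth, limit what can be said of small differences such as that of Cdk4. The number of genes called was 68 with edgeR and moved to 302 with DESeq2, 120 without a filter on low counts, 41 and 32 with limma-trend on log2(TPM + 1) and log2(TPM + 0.1), and 36 on log2(TPM + 1) without a filter. It ranged from 22 to 299 when 1 library was left out. Of the 10 genes, 1 was called by DESeq2 (Rb1), and 0 to 1 when 1 library was left out (Cdkn1a, without PKM2ΔMAC replicate 2). When 1 library was left out, the log2 fold change ranged from -0.036 to 0.30 for Ccnd1, from -0.027 to 0.19 for Ccnd2, from -0.023 to 0.20 for Ccnd3, from -0.035 to 0.13 for Cdk6, from -0.0798 to 0.10 for Cdkn2d and from -0.12 to 0.012 for Cdkn1b. For Cdkn1b it was also positive with limma-trend, at 0.022 on log2(TPM + 1) with or without a filter and 0.022 on log2(TPM + 0.1), which is below the medians of all genes in these fits (0.063, 0.046 and 0.067) and so no change of direction relative to them. For the libraries left out, the cause was not tested. For Cdkn1a the range was -0.25 to -0.028 and for Cdk4 0.026 to 0.073, and on log2(TPM + 1) they were at -0.039 and 0.12. Cdk4, Cdkn2c, Cdkn1a and Rb1 kept their direction under all 16 alternatives. Whether the numbers of the libraries pair them cannot be settled from these values. The deviations of same-numbered libraries correlated at 0.16, 0.25 and 0.04. PKM2ΔMAC replicates 1 and 2 correlated best with the PKM2FL/FL library of the same number, but replicate 3 correlated best with PKM2FL/FL replicate 1 (0.14). The fit with a replicate block called 82 genes, against 68 without it, and 0 of the 10. The fall of Pkm kept its size but lost the threshold with limma-trend (-0.61, adjusted p 0.118 to 0.156) and without PKM2FL/FL replicate 1, 2 or 3 (-0.67, -0.68 and -0.68, adjusted p 0.0761, 0.0754 and 0.0993).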

Other observations

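The 10 genes were also set beside other cyclin and CDK genes of the tables, by a choice of symbols made after the data were seen. It took the cyclins from Ccna to Ccnl and the CDK genes with a plain number, so that such members as Ccnt1 and Cdk11b were not included. Of 19 CDK genes, Cdk18 had the highest mean level over the 6 libraries (126 TPM, range 104 to 151), followed by Cdk4 (111 TPM) and Cdk9, the kinase of transcription elongation (102 TPM), while Cdk6 was in place 11. Of 19 cyclin genes, Ccni (245 TPM) and Ccng1 (203 TPM) were the most abundant, and Ccnd1, Ccnd2 and Ccnd3 were in places 5, 7 and 10. Among the 17 other CDK genes tested, 10 were higher and 7 lower in PKM2ΔMAC BMDMs, with 0 called by edgeR's quasi-likelihood test and 3 at an unadjusted p under 0.05. These were Cdk14 (log2 fold change 0.16), Cdk20 (0.19) and Cdk1, the mitotic kinase (0.40). Among the 15 other cyclin genes tested, 10 were higher and 5 lower, with 0 called and 1 at an unadjusted p under 0.05, Ccne1 (0.39).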
